A study of Mus musculus with 6 samples.

Results

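The genes described here are 8 genes of the muscle atrophy program, namely the ubiquitin ligase genes *Fbxo32*, *Trim63*, *Trim54*, *Trim55*, and *Fbxo30* and the transcription factor genes *Foxo1*, *Foxo3*, and *Foxo4*. They were chosen by name, with earlier results of these data known, from the 56923 genes of the deposited mRNA-Seq counts. All 8 passed the filter on low counts and were among the 17212 genes tested. RNA came from the left ventricles (LVs) of 3 WT mice and 3 *Lztr1*R409C/+ mice aged 12 weeks, and each mouse gave 1 library. *Lztr1*R409C/+ mice, here called mutant mice, carry a germline knock-in of the R409C substitution on 1 allele and were backcrossed to C57BL/6J, and by the study's methods male mice were used and hearts were perfused with PBS. The comparison addresses how a heterozygous mutation in *Lztr1*, which encodes a substrate adaptor of CUL3 ubiquitin ligases, alters gene expression in the LV.

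In striated muscle, ubiquitin ligases mark contractile and signaling proteins for destruction by the proteasome, and this balance between synthesis and breakdown sets the size of the cell. FOXO factors are transcription factors that growth signals hold in check. AKT, activated by insulin and IGF1, phosphorylates them, after which they leave the nucleus. When AKT activity is low, FOXO factors enter the nucleus and turn on *Fbxo32* and *Trim63*, as well as genes of autophagy. *Fbxo32* encodes atrogin-1, the substrate receptor of an SCF-type ligase, and *Trim63* encodes MuRF1, a RING-finger ligase at the sarcomere. Since FOXO activity depends on phosphorylation and location of the protein, the RNA of a *Foxo* gene is not a readout of that activity.

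Total counts ranged from 66130887 to 72641124 per mouse. Libraries stood apart in the share of counts from mitochondrially encoded genes, which was 13.8% in WT replicate 3, 45.4% in mutant replicate 1, and between 29.7% and 37.3% in the other 4 mice. Counts were scaled with TMM, whose factors were 1.39 and 0.800 in these libraries, and are given as CPM, which are counts relative to the scaled library total. Of all tested genes, 7 passed a false discovery rate of 0.05 by edgeR's quasi-likelihood test. The 3 WT mice had 24.2, 24.2, and 22.2 CPM of *Lztr1* RNA, and the 3 mutant mice had 23.9, 27.9, and 25.3 CPM, always in the order of replicates 1, 2, and 3. A base substitution need not alter the amount of RNA, so these values do not check the genotype labels. Cardiomyocyte markers summed to between 30241 and 43728 CPM. The 5 atrial markers summed to between 39.5 and 78.2 CPM in WT and between 55.1 and 111 CPM in mutant mice, most of it from *Nppa*, with between 37.7 and 106.6 CPM over all mice. Of the others, *Sln* and *Myl7* had 0 CPM in WT and at most 0.0552 and 0.262 CPM in mutant mice, *Myl4* had at most 0.570 CPM in any mouse, and *Dkk3* had between 1.04 and 1.58 CPM in WT and between 1.68 and 3.92 CPM in mutant mice. The 6 skeletal muscle markers summed to between 183 and 317 CPM in WT and between 165 and 199 CPM in mutant mice, nearly all from *Acta1*, an actin gene that the heart also expresses. The other 5, *Myh1*, *Myh2*, *Myh4*, *Tnnt3*, and *Myog*, together had between 0.0454 and 0.386 CPM.

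The data showed lower means in mutant mice for 7 of the 8 genes, with *Trim54* the exception, whereas the fitted log2 fold change was below 0 for 48.6% and above 0 for 51.4% of all tested genes. The median log2 fold change over the 8 genes was -0.34, beside 0.01 over all tested genes. Without mutant replicate 1, the median over the 8 genes lay between -0.25, for *Foxo1*, and -0.19, for *Foxo3*. Without both that mouse and WT replicate 3, it was -0.17. None of the 8 genes passed the false discovery rate of 0.05 with edgeR's quasi-likelihood test, edgeR's exact test, or DESeq2 (0 of 8 in each). In the quasi-likelihood test 0.0407% of tested genes passed, with 0.00581% lower and 0.0349% higher. At an unadjusted p under 0.05 by the quasi-likelihood test, 2 were lower and 0 were higher, where 2.86% of all tested genes were lower and 5.77% were higher. These 2 genes, *Trim63* and *Fbxo32*, were also the only members whose CPM did not overlap between the genotypes, where 7.23% of tested genes were lower and 8.3% higher without overlap. With 3 mice against 3, an exact permutation test allows no p below 0.1. In bulk tissue, fewer cells of a type and less RNA per cell cannot be told apart. The p-values set the difference between the genotypes against the spread between mice of the same genotype. Nothing in the labels names litters or dates, so a difference in these between the genotypes could not be told apart from the mutation.

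**Figure D1:**
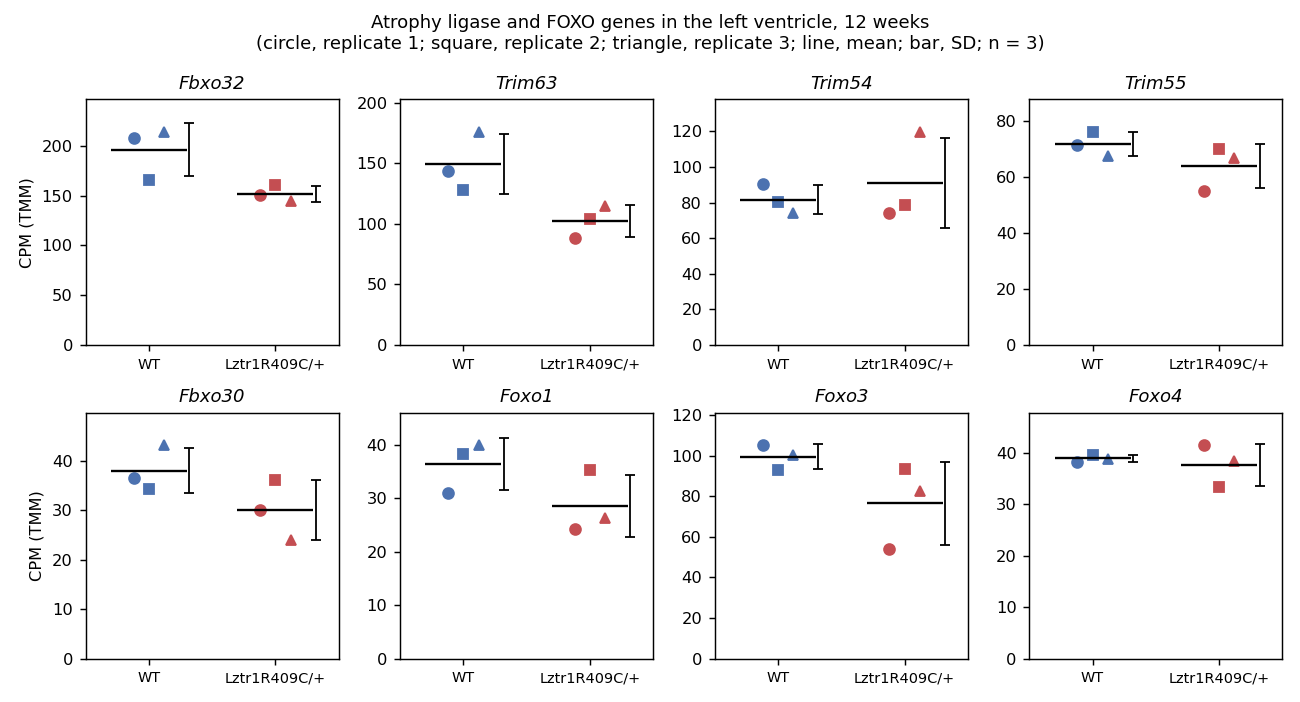
CPM of the 8 genes in each mouse, with WT mice in blue and Lztr1R409C/+ mice in red. Horizontal lines are means and bars are SD (n = 3). The 3 Lztr1R409C/+ mice lay below the 3 WT mice for Fbxo32 and Trim63, and the genotypes overlapped for the other 6 genes.

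*Trim63* (ENSMUSG00000028834.14) lies on the plus strand of chromosome 4 of GRCm39 from 134042393 to 134056948. MuRF1, its product, binds titin at the M-band and is known to ubiquitinate myosin heavy chain and cardiac troponin I. *Trim63* was at 144, 128, and 176 CPM in the WT mice, against 88.4, 104, and 115 CPM in the mutant mice. The highest mutant mouse was below the lowest WT mouse. Means were 149 ± 24.6 CPM (SD, n = 3) in WT and 102 ± 13.3 CPM (SD, n = 3) in mutant mice, a mean lower by 31.4%. The log2 fold change was -0.54 (standard error 0.17, 95% interval -0.92 to -0.16), and the edgeR quasi-likelihood p was 0.00886 before and 0.410 after Benjamini-Hochberg adjustment over all tested genes. Its adjusted p lay between 0.162, from DESeq2, and 0.976 over the 17 alternatives. Without both WT replicate 3 and mutant replicate 1, the log2 fold change was -0.31. Scaling by library size only, the genotypes overlapped, since mutant replicate 3 had 126 CPM and WT replicate 2 had 116 CPM on that scale.

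*Fbxo32* (ENSMUSG00000022358.8) lies on the minus strand of chromosome 15 from 58039275 to 58078741. Atrogin-1 is known to target calcineurin for degradation in cardiomyocytes. *Fbxo32* had 208, 166, and 214 CPM in WT mice, against 150.5, 160.2, and 145 CPM in mutant mice. The groups were separated by WT replicate 2 at 166 CPM and mutant replicate 2 at 160.2 CPM, a gap smaller than the SD of either group. Mean levels were 196 ± 26.3 CPM (SD, n = 3) in WT and 152 ± 7.89 CPM (SD, n = 3) in mutant mice, a mean lower by 22.6%. The log2 fold change was -0.37 (standard error 0.16, 95% interval -0.72 to -0.02, unadjusted p = 0.0388, adjusted p = 0.554, edgeR). The unadjusted p ranged from 0.0261 to 0.133 over the 17 alternatives and was under 0.05 in 9 of them. It was 0.133, 0.101, and 0.0813 without WT replicate 1, WT replicate 3, and mutant replicate 3, respectively, in edgeR's quasi-likelihood test. When scaled by library size only, *Fbxo32* overlapped as well, with 150.1 in WT replicate 2 and 158 in mutant replicates 2 and 3.

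The upstream sequences of these genes are shown because FOXO factors are known to act there. Each is the 250 bases before the start of the Ensembl canonical transcript in GENCODE, 5′ to 3′ on the gene's strand, read from GRCm39. The letters GTAAACA, the core of a FOXO binding element, and CAAAACA, the core of an insulin response element, were searched on both strands, and matches are in capitals.
Trim63, chr4:134042143-134042392, plus strand: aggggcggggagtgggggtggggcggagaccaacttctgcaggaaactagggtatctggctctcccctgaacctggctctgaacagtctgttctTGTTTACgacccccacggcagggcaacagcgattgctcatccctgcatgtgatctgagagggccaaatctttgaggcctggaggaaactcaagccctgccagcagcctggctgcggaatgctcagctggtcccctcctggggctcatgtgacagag
Fbxo32, chr15:58078742-58078991, minus strand: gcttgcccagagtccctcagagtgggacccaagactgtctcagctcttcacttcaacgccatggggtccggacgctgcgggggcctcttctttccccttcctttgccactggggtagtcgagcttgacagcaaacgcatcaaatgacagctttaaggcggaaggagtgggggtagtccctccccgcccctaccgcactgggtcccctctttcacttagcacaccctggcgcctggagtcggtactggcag

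*Trim63* held GTAAACA on the strand opposite to the gene, from -156 to -150 relative to the transcript start, where it reads TGTTTAC in the sequence shown. Of 21757 upstream windows of protein-coding genes of the same length, 592 (2.72%) held GTAAACA on either strand and 1334 (6.13%) held CAAAACA. *Foxo4* held CAAAACA from -245 to -239. The windows of *Fbxo32*, *Trim54*, *Trim55*, *Fbxo30*, *Foxo1*, and *Foxo3* held neither, which says only that these letters are not in these windows. A match is a description of the sequence, and binding was not measured here.

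*Trim54* (ENSMUSG00000062077.15, chromosome 5, 31273911 to 31298846) and *Trim55* (ENSMUSG00000060913.7, chromosome 3, 19698571 to 19746771) encode the other MuRF ligases. MuRF3, from *Trim54*, associates with microtubules, and MuRF2, from *Trim55*, binds titin near its kinase domain. *Trim54* was measured at 90.5, 80.0, and 74.1 CPM in WT and at 74.4, 78.6, and 120 CPM in mutant mice, in replicate order. Only mutant replicate 3 exceeded the WT mice. For *Trim54*, the log2 fold change was 0.16 (standard error 0.20, 95% interval -0.27 to 0.58, adjusted p = 0.860, edgeR) and -0.09 without that mouse. *Trim55* had 71.4, 76.2, and 67.5 CPM in WT and 55.0, 70.0, and 66.8 CPM in mutant mice, with mutant replicate 1 the lowest. The log2 fold change of *Trim55* was -0.16 (standard error 0.15, 95% interval -0.50 to 0.17, adjusted p = 0.809, edgeR), and -0.08 without mutant replicate 1. *Fbxo30* (ENSMUSG00000047648.14, chromosome 10, 11156770 to 11173806) encodes MUSA1, an F-box protein of muscle atrophy that BMP signaling represses. The WT mice had 36.6, 34.3, and 43.2 CPM of it, and the mutant mice had 30.1, 36.2, and 24.1 CPM. mutant replicate 2 lay within the WT range and the other mutant mice below it. The log2 fold change of *Fbxo30* was -0.34 (standard error 0.18, 95% interval -0.73 to 0.05), and the edgeR quasi-likelihood p was 0.0857 before and 0.636 after adjustment. It was -0.20 without mutant replicate 3.

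Among the FOXO genes, *Foxo3* and *Foxo1* had lower means in mutant mice with overlap between the genotypes, and *Foxo4* was close to its WT level. *Foxo3* (ENSMUSG00000048756.12, chromosome 10, 42057837 to 42154007) encodes the factor best known for driving *Fbxo32*. Its level was 105, 93.1, and 100.4 CPM in WT mice, against 53.9, 93.5, and 82.4 CPM in mutant mice. The lowest value belonged to mutant replicate 1, the library with the largest mitochondrial share, and mutant replicate 2 was just above the lowest WT mouse. With DESeq2 size factors it lay just below that mouse, so that *Foxo3* did not overlap on that scale. The log2 fold change of *Foxo3* was -0.38 (standard error 0.20, 95% interval -0.81 to 0.05, adjusted p = 0.625, edgeR). It was -0.19 without mutant replicate 1 and -0.17 without that mouse and WT replicate 3. *Foxo1* (ENSMUSG00000044167.7, chromosome 3, 52175757 to 52260642), whose product mediates much of the transcriptional response to insulin, had 30.9, 38.3, and 39.9 CPM in WT and 24.3, 35.2, and 26.3 CPM in mutant mice. Here mutant replicate 2 again lay within the WT range and the other mutant mice below it. The log2 fold change of *Foxo1* was -0.35 (standard error 0.18, 95% interval -0.74 to 0.05, adjusted p = 0.629, edgeR). It was -0.53 without mutant replicate 2 and -0.17 without both mutant replicate 1 and WT replicate 3. *Foxo4* (ENSMUSG00000042903.9, chromosome X, 100298073 to 100304479) had 38.3, 39.6, and 38.9 CPM in WT and 41.5, 33.3, and 38.3 CPM in mutant mice. WT mice differed little from each other, with a coefficient of variation of 1.71%, and mutant mice lay on both sides of them. The interval of its log2 fold change, -0.37 to 0.28, includes the estimate for *Foxo1*, and that for *Foxo3* lies at its lower edge, just outside.

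**Figure D2:**
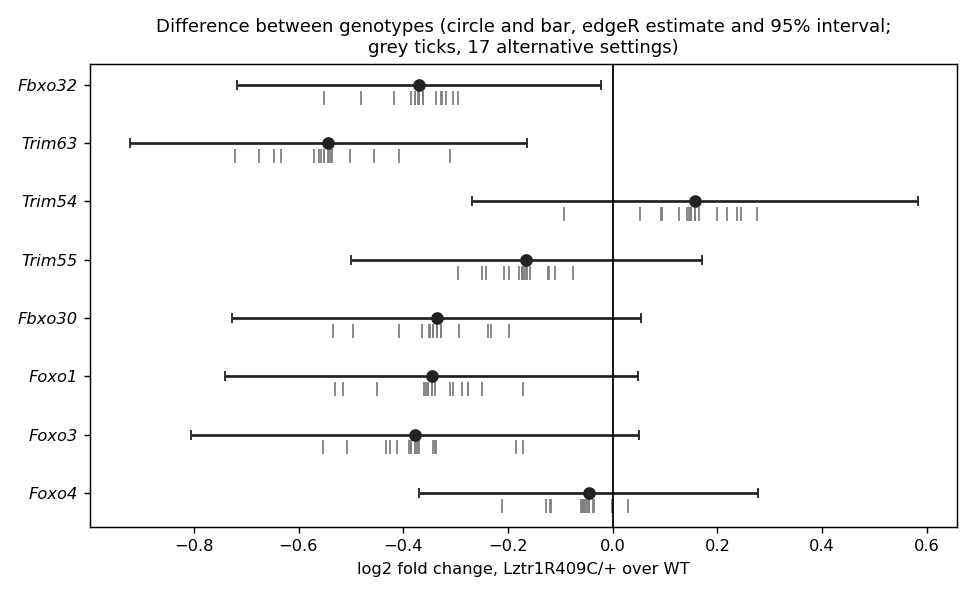
Log2 fold change of Lztr1R409C/+ over WT mice for each gene, as the edgeR estimate with its 95% interval, and as grey ticks under 17 alternative settings. The interval excludes 0 for Fbxo32 (-0.72 to -0.02) and Trim63 (-0.92 to -0.16) before adjustment for the number of genes tested.

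To compare genes with each other, CPM was divided by the length of the canonical transcript in kilobases. On this scale, *Trim63* had the highest level of the 8 genes in WT, with 103 ± 17.0 CPM per kilobase (SD, n = 3). *Fbxo32* with 26.5 ± 3.56, *Trim55* with 25.2 ± 1.53, and *Trim54* with 23.8 ± 2.41 CPM per kilobase (SD, n = 3 each) followed, and their ranges over WT mice overlapped. *Foxo3* with 14.5 ± 0.874, *Foxo4* with 12.1 ± 0.206, *Fbxo30* with 7.08 ± 0.854, and *Foxo1* with 4.20 ± 0.553 CPM per kilobase (SD, n = 3 each) came next, without overlap between neighbors. In mutant mice, *Trim63* stayed first with 70.9 ± 9.22 CPM per kilobase (SD, n = 3), and *Foxo3* at 11.2 ± 2.98 and *Foxo4* at 11.7 ± 1.27 overlapped. The order depended on the length used. The *Trim63* transcript taken as canonical has 1445 bases, whereas all its exons cover 3268 bases, and for *Trim55* the lengths are 2848 and 10340 bases. With all exons, *Trim63* had 45.7 ± 7.54 CPM per kilobase (SD, n = 3) in WT, still the highest, and *Trim55* moved to the sixth place with 6.94 ± 0.420.

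The make-up of each family within a mouse does not depend on how libraries are scaled. *Trim63* made up 65.9%, 63.9%, and 72.9% of the summed MuRF level, in CPM per kilobase of transcript, in the WT mice, against 59.9%, 60.2%, and 57.6% in the mutant mice. The genotypes did not overlap, and WT mice averaged 67.6% ± 4.74 and mutant mice 59.3% ± 1.41 (SD, n = 3 each; exact permutation test, two-sided, p = 0.1, which is the lower limit). The share of *Trim54* was 17.5%, 16.8%, and 12.9% in WT and 21.2%, 19.2%, and 25.4% in mutant mice, also without overlap (two-sided exact permutation test, p = 0.1). *Trim55* shares overlapped, with means of 16.7% ± 2.57 and 18.8% ± 1.78 (SD, n = 3 each). Put as a ratio of CPM, there were 1.59, 1.60, and 2.38 *Trim63* counts for each *Trim54* count in WT and 1.19, 1.32, and 0.959 in mutant mice. The means of the log2 ratios differed by -0.67 (two-sided exact permutation test, p = 0.1). The other 4 ratios computed between members overlapped, with a two-sided exact permutation p of 0.2 for *Trim63* to *Trim55*, 0.3 for *Fbxo32* to *Trim63*, 0.4 for *Foxo3* to *Foxo4*, and 0.8 for *Foxo3* to *Foxo1*. In the FOXO family, *Foxo3* took 49.8%, 44.8%, and 46.7% of the summed level in WT and 33.4%, 48.6%, and 44.6% in mutant mice. *Foxo4* took 54.7% in mutant replicate 1 and between 36.9% and 44.1% in the other 5 mice, and *Foxo1* took between 11.3% and 14.7% in all 6. None of the FOXO shares separated the genotypes (two-sided exact permutation tests, p = 0.4 for *Foxo3* and *Foxo4* and p = 0.5 for *Foxo1*).

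**Figure D3:**
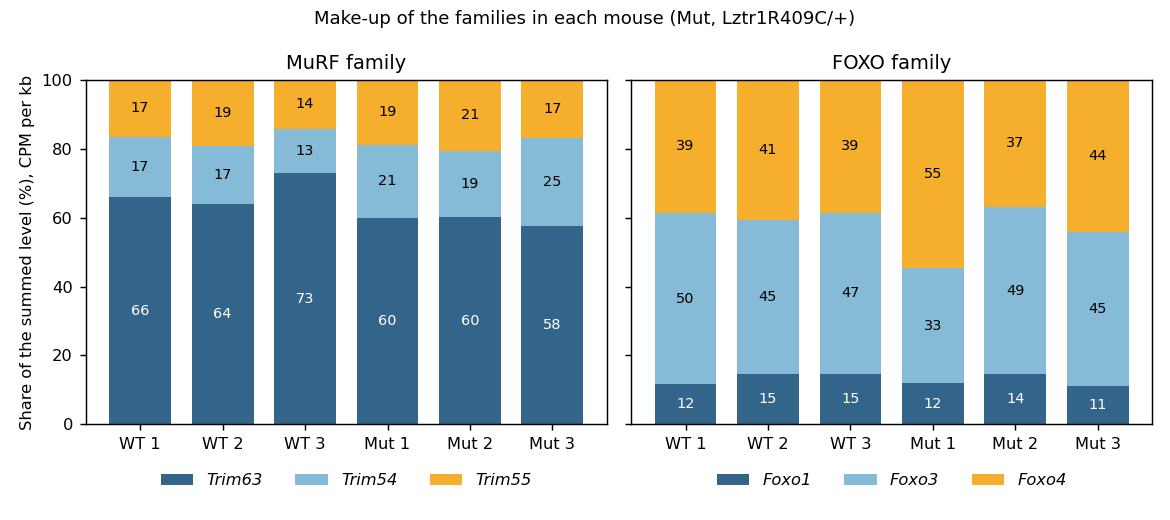
Share of each gene in the summed level of its family, in percent of CPM per kilobase of transcript, for each mouse (Mut, Lztr1R409C/+). Trim63 held 57.6% to 60.2% of the MuRF level in the Lztr1R409C/+ mice and 63.9% to 72.9% in the WT mice.

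Levels of markers of other cell types in the same libraries are given here as sums over each list. All 9 macrophage markers had higher means in mutant mice without overlap, and their sum was between 212 and 239 CPM in WT and between 356 and 464 CPM in mutant mice. Lymphocyte markers summed to between 0.676 and 1.12 CPM in WT and between 2.28 and 2.80 CPM in mutant mice. Cardiomyocyte markers summed to 43728, 40950, and 39523 CPM in WT and 30241, 37121, and 42594 CPM in mutant mice, with replicate 1 of the latter the lowest. Of these 8 markers, 5 had a log2 fold change below 0 and 3 above, from -0.39 for *Myh6* to 0.51 for *Myl2*. *Myh6*, the most abundant, had 17348, 14162, and 14121 CPM in WT and 6330, 11876, and 16622 CPM in mutant mice. Erythroid markers summed to between 579 and 1479 CPM in WT and between 1042 and 2626 CPM in mutant mice, with overlap, and all 5 had higher means in mutant mice, with a median log2 fold change of 0.97 and 3 of 5 at an unadjusted p under 0.05 by edgeR. Mural cell markers summed to between 651 and 769 CPM in WT and between 601 and 744 CPM in mutant mice. Their log2 fold changes were -0.71 for *Myh11* and -0.65 for *Tagln*, both lower without overlap, and -0.13 for *Acta2*, -0.09 for *Rgs5*, 0.20 for *Pdgfrb*, and 0.29 for *Kcnj8*, with overlap. Endothelial markers, with between 465 and 755 CPM, and fibroblast markers, with between 809 and 1128 CPM over all mice, overlapped as sums, and 1 of 6 and 2 of 7 genes, respectively, were higher without overlap. Of all tested genes, 7.23% were lower and 8.3% higher without overlap, and 5.77% were higher at an unadjusted p under 0.05. The part of these cell types in the lower means of the members was not tested.

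Each gene was also set against the sum of 8 cardiomyocyte markers in the same mouse, a choice made after the data were seen. This sum follows its most abundant genes, such as *Myh6*, and the markers did not all move in 1 direction. It is therefore not a measure of cardiomyocyte content. *Trim63* amounted to 3.29, 3.12, and 4.46 CPM per 1000 CPM of these markers in WT and to 2.92, 2.80, and 2.70 in mutant mice, and the genotypes did not overlap (two-sided exact permutation test, p = 0.1). Of all tested genes, 1.31% were lower without overlap on this scale. *Fbxo32* amounted to 4.76, 4.05, and 5.42 in WT and to 4.98, 4.32, and 3.39 in mutant mice and overlapped (two-sided exact permutation test, p = 0.5), so that its separation in CPM was not kept. *Trim54* was higher without overlap, with 2.07, 1.95, and 1.88 in WT and 2.46, 2.12, and 2.81 in mutant mice, where 15.7% of tested genes were higher without overlap. The other 5 genes overlapped, with a two-sided exact permutation p between 0.3 for *Foxo3* and 0.9 for *Trim55*.

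**Figure D4:**
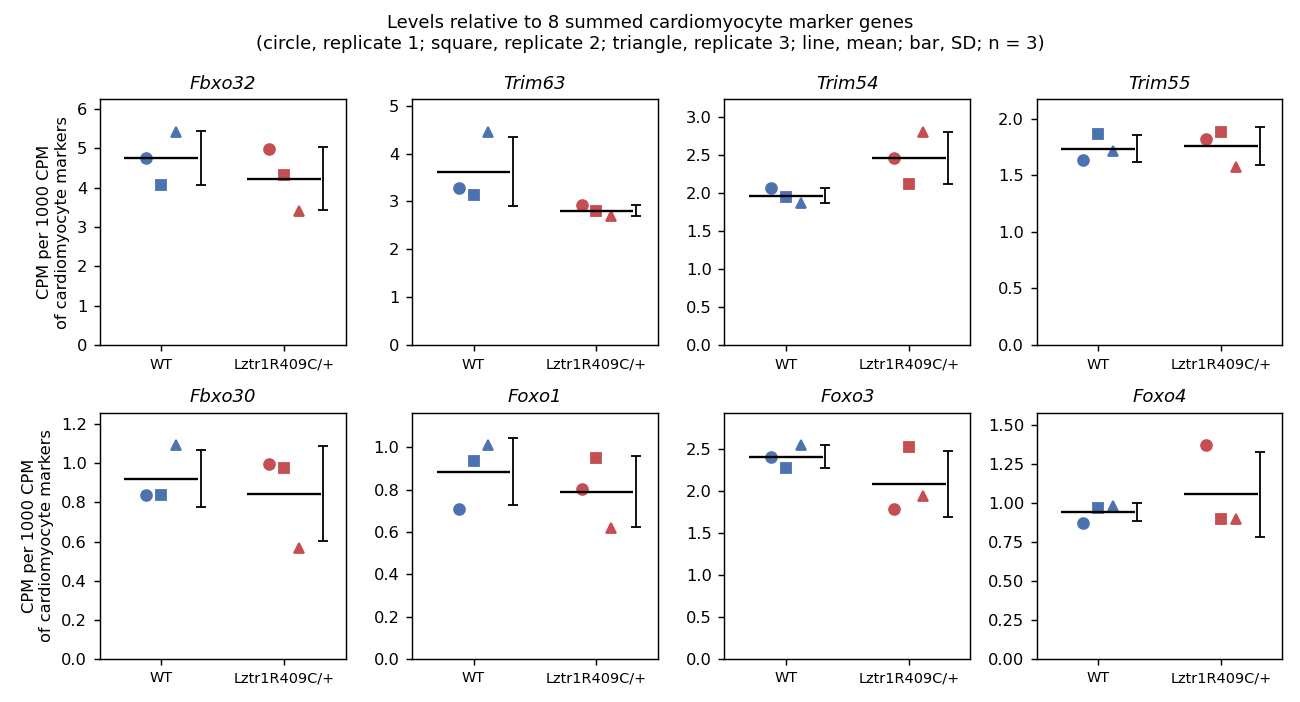
Level of each gene in each mouse as CPM per 1000 CPM of 8 summed cardiomyocyte markers, with means as lines and SD as bars (n = 3). Trim63 lies between 2.70 and 2.92 in Lztr1R409C/+ mice and between 3.12 and 4.46 in WT mice, whereas Fbxo32 overlaps.

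Whether the members varied together between mice was examined for 6 pairs. For the 5 pairs with *Fbxo32* or *Trim63*, in which the genotypes separated, no correlation over the 6 mice is given, and 3 mice of a genotype are too few for it. For *Foxo1* and *Foxo3*, Pearson's r was 0.754 (permutation p = 0.0389, adjusted p = 0.117 over 6 pairs) and Spearman's rho was 0.600 (permutation p = 0.242, adjusted p = 0.242). Without the 2 mice farthest from the median of *Foxo1* in log2 CPM, which were mutant replicates 1 and 3, r was -0.523 over the remaining 4. Leaving out the extremes of *Foxo1* narrows its range, here to between 30.9 and 39.9 CPM, so the value over 4 mice does not decide the sign. Pearson's r was 0.5225 without mutant replicate 1 alone, 0.810 without mutant replicate 3 alone, and 0.569 after the mean of each genotype was subtracted. It was -0.689 over the 3 WT mice and 0.812 over the 3 mutant mice, too few mice to decide a sign. Both genes had lower means in mutant mice. The permutations ran over all 6 mice, so their p-values include the difference between the genotypes and do not single out variation within them. As a description with no test, the genes whose log2 CPM over the 6 mice was most like each of 3 members were named from 13214 genes with a mean of at least 1 CPM. For *Fbxo32* these were *Sesn1* (r = 0.982), *Casq1* (r = 0.981), and *Adam22* (r = 0.975). Among the genes most like *Trim63* were *Baz1b* (r = 0.990) and *Map3k5* (r = 0.986), and *Foxo3* was most like *Gpc4* (r = 0.996), *Gon4l* (r = 0.994), and *Dpyd* (r = 0.994). All these values share the 6 libraries and their depth and were the highest of many. They also include the difference in means between the genotypes, which for *Foxo3* came with overlap.

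The other genes of the pathway were read from lists, none of which had a gene past the false discovery rate of 0.05 by edgeR's quasi-likelihood test, edgeR's exact test, or DESeq2. The counts below 0 stand beside 48.6% of all tested genes below 0. Regulators upstream of FOXO, such as the kinases of the PI3K and AKT pathway, had a median log2 fold change of -0.15 over 26 tested genes, of which 20 were below 0 and 6 above. This median was -0.08 without mutant replicate 3. Without overlap, 5 were lower and 1 was higher, where 7.23% of all tested genes were lower and 8.3% higher. At an unadjusted p under 0.05, 0 of these 26 were higher and 0 lower, where 5.77% of all tested genes were higher and 2.86% lower. The lowest p among genes with a higher mean belonged to *Akt1*, a kinase that phosphorylates FOXO factors, with 123 ± 7.03 CPM in WT and 154 ± 25.7 CPM in mutant mice (SD, n = 3 each). *Akt1* did not overlap between the genotypes (unadjusted p = 0.0689 by edgeR's quasi-likelihood test). *Sgk1*, a related kinase, had 59.3 ± 2.32 and 70.7 ± 15.3 CPM (SD, n = 3 each). *Prkaa2*, the AMPK catalytic subunit that predominates in muscle, had 219 ± 21.8 and 174 ± 22.2 CPM, and *Pik3cb*, a PI3K catalytic subunit, had 21.1 ± 1.86 and 16.6 ± 2.55 CPM (SD, n = 3 each). *Pik3cb* did not overlap between the genotypes either (unadjusted p = 0.0661 by edgeR).

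Known FOXO target genes other than the ligases had a median log2 fold change of -0.13 over 28 tested genes, 20 below 0 and 8 above. At an unadjusted p under 0.05 by the quasi-likelihood test, 5 were lower and 1 was higher, where 2.86% of all tested genes were lower and 5.77% higher. *Pik3ip1*, an inhibitor of PI3K, had 28.4 ± 5.33 CPM in WT and 20.8 ± 3.72 CPM in mutant mice (SD, n = 3 each, log2 fold change -0.45, unadjusted p = 0.0376). *Insr*, the insulin receptor, had 169 ± 10.4 and 128 ± 23.7 CPM (SD, n = 3 each, log2 fold change -0.40, unadjusted p = 0.0395) without overlap. The higher gene was *Eif4ebp1*, which encodes a repressor of translation that TOR complex 1 inactivates, with 16.0 ± 2.85 and 23.5 ± 5.10 CPM (SD, n = 3 each, log2 fold change 0.55, unadjusted p = 0.0167) and no overlap. *Pdk4*, which limits the entry of pyruvate into the mitochondrial oxidation of glucose, varied widely, with 603 ± 252 and 800.5 ± 499 CPM (SD, n = 3 each). *Sesn1*, in this list and named because it was closest to *Fbxo32* over the mice, had 132 and 104 CPM on average (log2 fold change -0.35). Since the CPM of *Fbxo32* separated the genotypes, a gene chosen for likeness to it is lower in mutant mice by that choice. The difference in *Sesn1* is therefore not separate evidence. The lowest adjusted p of the list was 0.475, that of *Eif4ebp1*.

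Other ubiquitin ligases of muscle were below 0 in 15 of 18 tested genes, with a median log2 fold change of -0.19, and 0 of 18 passed an unadjusted p under 0.05 in either direction. Of all tested genes, 2.86% were lower and 5.77% higher at that p. *Ubr2*, a ligase that recognizes destabilizing N-terminal residues, had 115 ± 6.75 CPM in WT and 90.8 ± 14.6 CPM in mutant mice (SD, n = 3 each), and *Fbxo40*, a muscle F-box gene, had 280 ± 5.76 and 223 ± 26.1 CPM (SD, n = 3 each). Neither overlapped between the genotypes, with unadjusted p-values of 0.0570 and 0.0596 by edgeR's quasi-likelihood test. *Wwp1* had 99.4 ± 2.56 and 105 ± 26.6 CPM, and *Nedd4l* had 21.1 ± 3.20 and 21.7 ± 5.87 CPM (SD, n = 3 each), the ligases of this list with a higher mean and the smallest p. Partners of the ligases, which are SCF scaffold proteins, ubiquitin-conjugating enzymes, ubiquitin genes, and deubiquitinases, were below 0 in 16 of 18 tested genes, with a median of -0.14. *Usp19*, a deubiquitinase linked to muscle wasting, had 118 ± 10.8 and 88.8 ± 15.6 CPM (SD, n = 3 each) without overlap, and its unadjusted p of 0.0349, by edgeR's quasi-likelihood test, was the only p under 0.05 in this list. *Usp14*, a deubiquitinase of the proteasome, had 78.1 ± 11.1 and 61.5 ± 8.02 CPM (SD, n = 3 each). *Ube2n* had 45.8 ± 7.46 and 49.5 ± 6.93 CPM, and *Ubb*, a polyubiquitin gene, had 192 ± 51.7 and 205 ± 67.3 CPM (SD, n = 3 each).

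Signals that feed into atrophy, such as activin and myostatin receptors, SMAD proteins, and glucocorticoid-responsive genes, divided into 12 above and 9 below 0 of 21 tested, with a median log2 fold change of 0.05. The sign of this median turned in 7 of 17 alternatives. *Tnfrsf1a*, a receptor of TNF, had 21.6 ± 4.88 CPM in WT and 30.4 ± 6.60 CPM in mutant mice (SD, n = 3 each, unadjusted p = 0.0385 by edgeR), with overlap. *Smad4*, the shared partner of SMAD factors, had 59.6 ± 4.91 and 46.9 ± 5.31 CPM (SD, n = 3 each, unadjusted p = 0.0437 by edgeR), without overlap. *Acvr2a*, an activin receptor, had 33.8 ± 4.45 and 26.5 ± 3.55 CPM, and *Smad3* had 16.5 ± 1.57 and 18.7 ± 3.00 CPM (SD, n = 3 each). Genes that encode known substrates of atrogin-1 and MuRF1, or the contractile proteins near them, were below 0 in 10 of 15, with a median of -0.16, and 0 of 15 passed an unadjusted p under 0.05. At that p, 2.86% of all tested genes were lower and 5.77% higher. The median of the substrate list was -0.10 without mutant replicate 1 and -0.08 without both that mouse and WT replicate 3. *Ttn*, which encodes titin, had 2588 ± 286 and 2011 ± 277 CPM, and *Ppp3ca*, a calcineurin subunit, had 75.9 ± 10.1 and 62.4 ± 7.47 CPM (SD, n = 3 each). *Myl2*, the ventricular light chain, had 1725 ± 443 and 2458 ± 1042 CPM, and *Ckm*, the muscle creatine kinase, had 1297 ± 223 and 1473 ± 153 CPM (SD, n = 3 each). The genes *Myh6*, *Myl2*, *Myl3*, *Tnnt2*, and *Tnni3* of the substrate list are also among the cardiomyocyte markers.

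**Figure D5:**
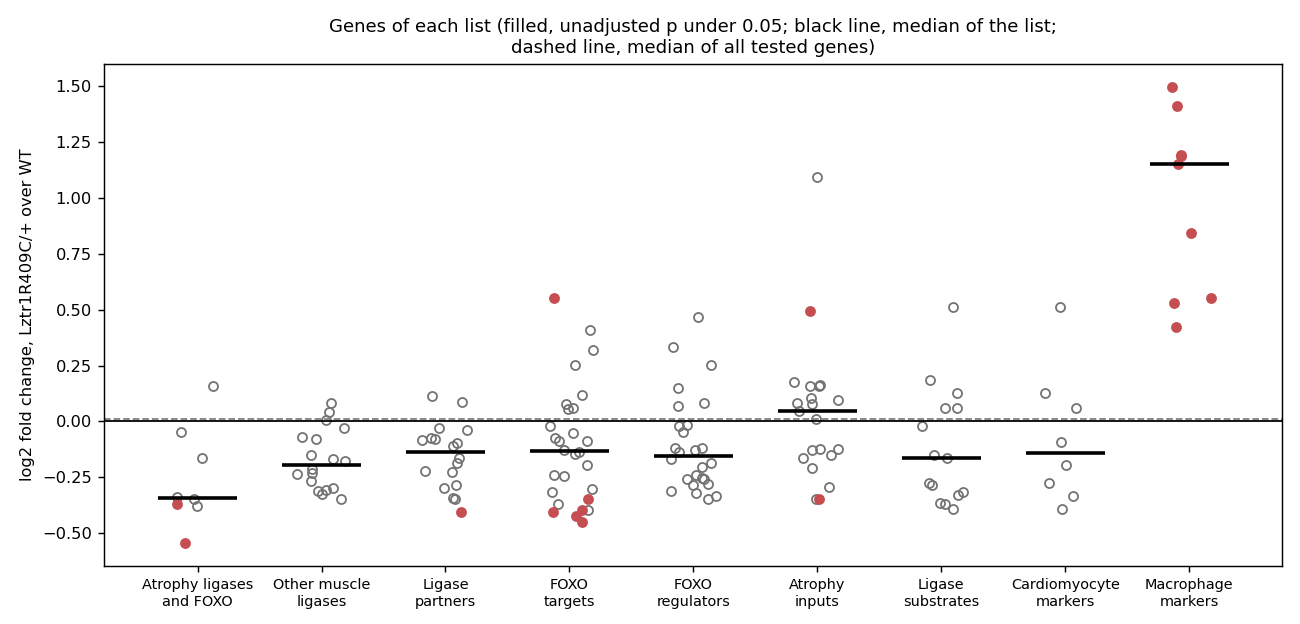
Log2 fold change of Lztr1R409C/+ over WT mice for the genes of each list, filled where the unadjusted p is under 0.05, with the median of each list as a black line and that of all tested genes (0.01) as a dashed line. The 8 genes have a median of -0.34 with all mice, and between -0.25 and -0.19 without mutant replicate 1. All macrophage markers lie above 0.

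Long transcripts tended to be lower in mutant mice. Across the 17127 tested genes with a length, the median log2 fold change was -0.05 for transcripts over 3000 bases and 0.09 for shorter ones. By the canonical transcript, 6 of the 8 genes are over 3000 bases, with *Trim63* and *Trim55* the exceptions. All exons of these 2 genes cover 3268 and 10340 bases, so they are no exceptions by that length. With a correction for transcript length, added after the data were seen, the log2 fold change was -0.68 for *Trim63* (adjusted p = 0.326), -0.32 for *Fbxo32* (unadjusted p = 0.0672), -0.34 for *Foxo3*, -0.28 for *Foxo1*, -0.33 for *Fbxo30*, -0.25 for *Trim55*, -0.12 for *Foxo4*, and 0.09 for *Trim54* from edgeR's quasi-likelihood test. For *Trim63*, at -0.54 without it, the correction rests on the 1445 bases of the canonical transcript. A correction by all exons was not made.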

How the data were processed

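The authors trimmed reads with Trim Galore, aligned them to GRCm39 with HISAT2, excluded rRNA, and used StringTie. The deposited counts are whole numbers per gene without normalization. Tool versions and the annotation release are not given in the sources used here. A deposited table of the authors' edgeR comparison served only to pair gene identifiers with names, and its fold changes and p-values were not used. Positions and transcript lengths came from GENCODE vM39 for 56236 of 56923 identifiers, matched without version.

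In edgeR 4.0.16 (R 4.3.3), low counts were removed by filterByExpr and libraries scaled by TMM to CPM, and mutant mice were compared to WT by the robust quasi-likelihood F-test, two-sided, with Benjamini-Hochberg adjustment over all 17212 tested genes. A standard error is the log2 fold change divided by the square root of F. 3 counts corresponded to between 0.0317 and 0.0541 CPM, counting error only. Single values were compared with exact permutation tests.

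By rule, the genes named outside the cell type markers are the 8 members, *Lztr1*, per list and direction the 2 genes of smallest p, and the 3 genes most like *Fbxo32*, *Trim63*, and *Foxo3*. *Sesn1* met the last rule, and 1 gene that met it is not reported here. Members and lists were chosen with earlier results of these data known. The alternatives were other scalings, DESeq2 1.42.0, edgeR's exact test, other filters, removal of mitochondrially encoded genes, a replicate block, and omission of each mouse. A gene length correction, the ratio to cardiomyocyte markers, and omission of WT replicate 3 with mutant replicate 1 were added after the data were seen. Steps were tested on simulated data. Protein sequences were not analysed here.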

Additional observations from a re-analysis of the deposited data

How the results depend on the processing

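No member passed the false discovery rate of 0.05 in any of the 17 alternatives, and the direction held in all of them for *Fbxo32*, *Trim63*, *Trim55*, *Fbxo30*, *Foxo1*, and *Foxo3*. It turned for *Foxo4* without mutant replicate 2 (log2 fold change 0.029, range -0.13 to 0.029 over omitted mice) and for *Trim54* without mutant replicate 3 (-0.092, range -0.092 to 0.276). The number of members lower at an unadjusted p under 0.05 was 1 with library size only, upper quartile scaling, the gene length correction, or the replicate block, 0 without both WT replicate 3 and mutant replicate 1, and 1 to 5 when single mice were omitted (1, *Trim63*, without WT replicate 1, WT replicate 3, or mutant replicate 3). Under these settings between 1.75% and 4.37% of all tested genes were lower at that p, with 2.97% where 5 members were. The 5 were *Fbxo30*, *Fbxo32*, *Foxo1*, *Foxo3*, and *Trim63*, without mutant replicate 2. The cause was not tested.

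Over all genes, the number past the false discovery rate moved from 7 to 150 with DESeq2, 140 with edgeR's exact test, 21 with library size only, 20 without a filter, 3 with the length correction, 1 with the replicate block, 1 without the 2 libraries that stood apart, and 2 to 4 with each mouse left out. At an unadjusted p under 0.05, 493 lower genes became 301 with library size only, 305 with upper quartile scaling, 324 with the replicate block, and 748 with the length correction, and 993 higher genes became 388 with library size only. Scaling by library size shifted the median log2 fold change of all genes to -0.14. Relative to it, *Trim54* stayed above and the other 7 genes below the median. The median of the atrophy inputs became -0.15 with library size only, -0.00596 with the length correction, and -0.125 to 0.0595 with each mouse left out. Same-numbered mice correlated at -0.00133, 0.0215, and -0.0573 in their deviations from the group means, so over all genes no pairing by replicate number was seen. A pairing that acts on a part of the genes was not tested, and the labels do not say what the numbers stand for.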
